A study of Mus musculus with 6 samples.

Results

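Wnt ligands, Frizzled receptors and targets are described here in CD24- and CD24+ cells of the mouse mammary carcinoma line Mvt1. The 10 genes are the ligands Wnt5a and Wnt7b, the receptors Fzd1, Fzd2, Fzd6 and Fzd7, the co-receptors Lrp5 and Lrp6, the target Axin2 and the transcription factor Tcf7l2. They were chosen by name, and all reads annotated to each of these symbols were summed in every library. They are 10 of 14798 genes with reads in the series, and 9 of the 11132 genes with enough reads to be tested. In CD24+ cells Fzd1, Fzd2, Fzd7 and Axin2 were higher, Lrp5 and Lrp6 were lower, and Wnt7b, Fzd6 and Tcf7l2 did not pass the test, while Wnt5a had 3 reads in all.

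Wnt proteins are secreted, lipid-modified ligands that bind a Frizzled receptor together with Lrp5 or Lrp6 at the cell surface. Binding stops the destruction complex, built on Axin and Apc, from marking β-catenin for degradation, and β-catenin then acts with transcription factors of the TCF/LEF family in the nucleus. Axin2 is a widely used target of this pathway and a negative feedback component of it. In the mammary gland, Wnt signalling takes part in branching and in the maintenance of stem and progenitor cells, and a Wnt gene was among the earliest oncogenes found in mouse mammary tumours.

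Both groups were Mvt1 cells, labelled as mammary epithelial cancer cells of strain FVB/N, stained for CD24 on the surface and sorted by flow cytometry. CD24- cells carried no CD24 on the surface, CD24+ cells did, and RNA came from 3 plates of each group grown in DMEM with serum. The labels give no treatment of either group. Mvt1 is a single line, from a tumour of a mouse with Myc and Vegf transgenes under the MMTV promoter, and no independent sorts are described, so SDs and p-values measure the spread between plates, which may be technical.

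The 6 libraries held 9046025 to 25692147 mapped reads, of which 71.8% to 74.4% were annotated to a gene. Values are counts per 1000000 gene reads (CPM), scaled by the TMM method of edgeR, and 3 reads correspond to 0.157 to 0.472 CPM on that scale, depending on the library. Cd24a, the gene of the sorted marker, averaged 10.2 ± 2.79 CPM in CD24- libraries and 77.1 ± 7.30 CPM in CD24+ libraries (SD, n = 3 each), or 2.91 on the log2 scale (edgeR, Benjamini-Hochberg adjusted p = 5.46e-07). Among luminal markers, Krt8 and Krt18 were abundant, Krt19 had 12.1 and 3.21 CPM, and all were lower in CD24+ cells, whereas Epcam had 6 reads and Cdh1 2 reads over all libraries. Summed luminal markers ranged from 1847 to 2039 CPM in CD24- and from 758 to 902 CPM in CD24+ libraries. Summed fibroblast markers ranged from 9.12 to 16.0 CPM and from 64.8 to 97.8 CPM, with 5 of 5 measured members higher in CD24+ cells, beside 23.8% of all genes, of which Col1a1, Col1a2 and Dcn could be tested only through their CD24+ reads. Summed leukocyte markers ranged from 46.6 to 80.5 CPM and from 7.17 to 9.44 CPM, with Cd68 and Itgam lower, Itgam tested only through its CD24- reads, and the defining marker Ptprc at 2 reads in all. Summed basal markers ranged from 0.421 to 1.35 CPM and from 6.72 to 14.1 CPM, with Acta2 higher (0.550 and 8.01 CPM, tested only through its CD24+ reads), Trp63 at 3 and 51 reads in the groups, Krt5 at 1 read and Krt14 at 3. Summed endothelial markers ranged from 2.70 to 4.64 CPM and from 0.786 to 2.04 CPM, with Cdh5 lower (54 and 8 reads in the groups), tested only through its CD24- reads. Single genes carried most of some sums, with Pdgfrb at 66.6 CPM in CD24+, Cd68 at 64.6 CPM in CD24- and Acta2 at 8.01 CPM in CD24+ cells. Not every marker followed its sum. Oxtr had 8 and 3 reads in CD24- and CD24+ cells, Myh11 2 and 4, Csf1r 2 and 4 and Pecam1 4 and 5, and Tek was not called. Vwf (17 and 8 reads) and Kdr (2 and 0) lay in the direction of theirs. The sums moved with the groups compared below but do not show a shift of whole lists, and their part in the results was not tested.

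Over all genes, 46.1% of those tested passed an adjusted p of 0.05, with 23.8% higher and 22.2% lower in CD24+ cells. Fzd1 and Axin2 passed the filter on low counts through the CD24+ libraries alone, so that they could enter the test only by being high there. Of the other 7 tested members, Fzd2 and Fzd7 were higher and Lrp5 and Lrp6 were lower, and Wnt7b, Fzd6 and Tcf7l2 were not called. Libraries of the 2 groups did not overlap for any called member, and did not for 57.3% of all genes tested. In bulk RNA, fewer cells that express a gene and less RNA per cell cannot be told apart.

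**Figure D1:**
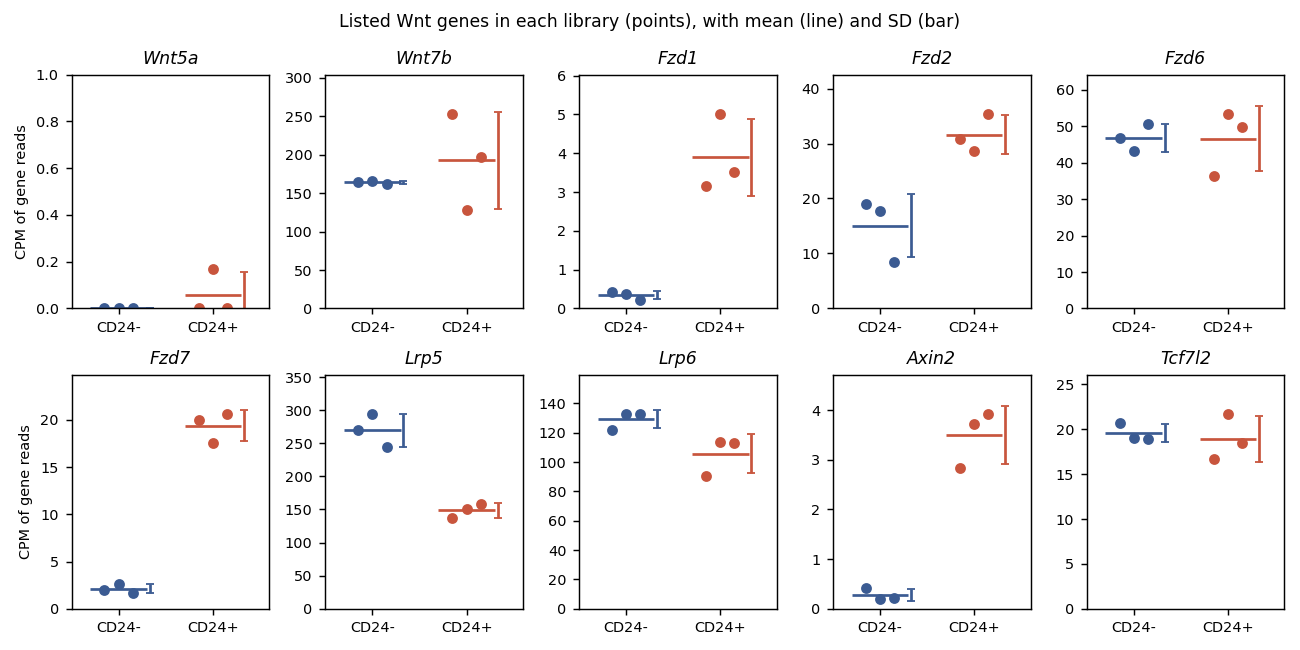
CPM of each of the 10 genes in the 3 CD24- and the 3 CD24+ libraries, with points for libraries and bars for mean ± SD. Fzd1, Fzd2, Fzd7 and Axin2 sit higher in all CD24+ libraries, Lrp5 and Lrp6 sit lower, and the points of Wnt7b, Fzd6 and Tcf7l2 overlap between the groups.

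Wnt7b, on chromosome 15 of GRCm38 from 85535437 to 85582473 on the minus strand, was the main measured ligand. Wnt7b is a ligand known to act through β-catenin. The coding read seen most often, printed 5′ to 3′ along the mRNA, lies in the conserved stretch around the serine to which the lipid is attached, at mm9 chr15:85368228-85368274, with 16 copies in CD24- and 31 in CD24+ libraries.
Wnt7b: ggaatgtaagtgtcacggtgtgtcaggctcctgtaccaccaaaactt
Wnt7b had 164.5, 165.5 and 161.9 CPM in CD24- replicates 1 to 3, and 253.5, 127.9 and 196.6 CPM in CD24+ replicates 1 to 3. The CD24- libraries were nearly equal, while the CD24+ libraries lay on either side of them. The means were 163.9 ± 1.85 and 192.7 ± 62.9 CPM (SD, n = 3 each), and the log2 fold change was 0.22 (95% interval -0.20 to 0.65, edgeR adjusted p = 0.362). Without CD24+ replicate 2 it was 0.44 (edgeR adjusted p = 0.00896), and without CD24+ replicate 1 it was -0.02 (edgeR adjusted p = 0.925), so a CD24+ library decided whether Wnt7b was called. Reads of Wnt7b carry no strand, and 324 bases of its exons, over all its transcripts, overlap exons of the antisense gene AU022754.

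Wnt5a, on chromosome 14 of GRCm38 from 28504750 to 28527448, is the ligand best known for signalling that does not pass through β-catenin. Its 3 reads were all in CD24+ replicate 2, at 0.169 CPM, and no read was found in the other libraries. A difference between the groups was not detectable at this depth.

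Among the 17 other listed ligands, 10 had reads, 3 were tested and 7 had too few reads, with 38 reads between them. Wnt9a was higher in CD24+ cells, from 1.13 ± 0.200 CPM to 4.83 ± 0.243 CPM (log2 fold change 2.09, edgeR adjusted p = 5.98e-05). Wnt5b, a close relative of Wnt5a, was lower, at 3.60 ± 0.494 and 0.325 ± 0.121 CPM (log2 fold change -3.43, edgeR adjusted p = 2.15e-05). Each passed the filter on low counts only through the group in which it was higher. Both are low genes beside Wnt7b: per kilobase of transcript, Wnt7b made up 95.2% ± 0.170 of the ligand level in CD24- and 96.1% ± 1.35 in CD24+ libraries (SD, n = 3 each), Wnt5b 2.996% and 0.267%, and Wnt9a 0.672% and 2.68%. Of 3 genes of ligand lipidation and secretion, Notum and Wls were higher and Porcn was not called, or 66.7% called beside 46.1% of all genes. Notum, an enzyme that removes the lipid from Wnt proteins and is itself a pathway target, rose from 1.299 ± 0.258 to 7.57 ± 1.23 CPM (log2 fold change 2.51, edgeR adjusted p = 2.17e-05). Wls, the carrier that takes Wnt proteins to the surface, annotated under its older symbol Gpr177, rose from 253 ± 18.0 to 321 ± 38.7 CPM (log2 fold change 0.34, edgeR adjusted p = 0.0202).

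Frizzled receptors hold the Wnt binding domain and cross the membrane as serpentine receptors. Fzd1, Fzd2 and Fzd7 form a close group, with protein identities of 81.6% between Fzd1 and Fzd7, 81.4% between Fzd1 and Fzd2 and 79.4% between Fzd2 and Fzd7, and 46.2% between Fzd6 and Fzd7. Each of the 3 genes has a single exon, so a stretch of the coding sequence is shown to compare them at the level at which the 47-nt reads were matched. The Fzd7 line is the coding read of that gene seen most often (mm9 chr1:59540598-59540644, plus strand), and capitals mark bases that differ from it in the same stretch of the GENCODE transcripts of Fzd1 and Fzd2.
Fzd7: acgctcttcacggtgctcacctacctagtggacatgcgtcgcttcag
Fzd1: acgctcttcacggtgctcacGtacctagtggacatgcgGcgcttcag
Fzd2: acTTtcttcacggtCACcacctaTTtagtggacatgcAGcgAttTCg
Fzd1 differed from Fzd7 at 2 of these 47 bases and Fzd2 at 12. Reads were placed by exact match, and at most 0.048% of the 47-base windows of these 3 transcripts also occur in another gene.

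Fzd7, on chromosome 1 of GRCm38 from 59482424 to 59486955, is a Frizzled known for roles in stem cells and in breast cancer. It had 1.998, 2.65 and 1.69 CPM in CD24- replicates 1 to 3, from 19, 28 and 15 reads, and 19.97, 17.5 and 20.6 CPM in CD24+ replicates 1 to 3, from 127, 310 and 394 reads. Every CD24+ library was several times above every CD24- library. The means were 2.11 ± 0.491 and 19.4 ± 1.65 CPM (SD over 3 plates), and the log2 fold change was 3.17 (standard error 0.19, edgeR adjusted p = 6.19e-07), and CD24- cells held 10.9% of the CD24+ level. In the coding part alone there were 8, 10 and 0 reads in CD24- and 48, 104 and 139 in CD24+ replicates 1 to 3, so the group difference was present in the coding sequence as well as in the 3′ UTR. By the median coverage of the transcript, with a regularizer of 10 added, the log2 fold change was 0.21 (limma adjusted p = 9.56e-04), on a scale that shrinks low genes. Fzd7 is in the study's heat map of a gene module drawn from these same samples, so its direction is not independent evidence.

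Fzd1, on chromosome 5 of GRCm38 from 4753839 to 4758035 on the minus strand, acts in both the β-catenin and other Wnt branches. It had 4, 4 and 2 reads in CD24- replicates 1 to 3, or 0.421, 0.379 and 0.225 CPM. In CD24+ replicates 1 to 3 it had 20, 89 and 67 reads, or 3.15, 5.02 and 3.51 CPM. The CD24- values lay near the floor of 3 reads, while the CD24+ values lay above it in all 3 libraries. The log2 fold change was 3.49 (95% interval 2.67 to 4.32, edgeR adjusted p = 3.33e-05), and 177 of the 186 reads were distinct sequences.

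Fzd2, on chromosome 11 of GRCm38 from 102604396 to 102608058, is a receptor for Wnt5a among other ligands. It had 18.9, 17.8 and 8.45 CPM in CD24- and 30.8, 28.6 and 35.5 CPM in CD24+ replicates 1 to 3. CD24- replicate 3 was well below the other CD24- libraries, and the groups did not overlap. The means were 15.1 ± 5.75 and 31.6 ± 3.49 CPM (SD over 3 plates), and the log2 fold change was 1.06 (standard error 0.23, edgeR adjusted p = 0.00393). It was 0.79 without CD24- replicate 3 (edgeR adjusted p = 6.24e-04), and 0.29 by median coverage (limma adjusted p = 0.00689).

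Fzd6, on chromosome 15 of GRCm38 from 39006034 to 39038188, is the Frizzled of planar cell polarity and can restrain the β-catenin branch. It had 46.7, 43.1 and 50.7 CPM in CD24- and 36.5, 53.5 and 49.9 CPM in CD24+ replicates 1 to 3. The groups overlapped fully, with the lowest and the highest value both in CD24+ cells. The log2 fold change was 0.01 (95% interval -0.29 to 0.32, edgeR adjusted p = 0.94), and 152 bases of its exons are shared with Gm26704 on the opposite strand. Reads annotated to Fzd6 that matched no GENCODE transcript, which include intron reads, were examined after the other values had been seen. They numbered 18, 19 and 29 in CD24- and 17, 76 and 79 in CD24+ replicates 1 to 3. The log2 fold change was 1.16 (edgeR adjusted p = 8.26e-04), where 23.7% of the 7779 genes tested on such reads were called. This fit was scaled to such reads alone. Over all genes, such reads were 4.10% to 5.15% of gene reads in CD24- and 2.45% to 3.84% in CD24+ libraries. The value is thus not on the scale of the other fits, and a difference relative to gene reads was not tested.

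Of the 6 other Frizzleds, 5 had reads and 3 were tested. Fzd5 was higher in CD24+ cells, at 16.4 ± 2.92 and 24.0 ± 1.43 CPM (log2 fold change 0.54, edgeR adjusted p = 0.00927). Fzd4 (5.22 ± 2.40 and 9.09 ± 1.32 CPM, log2 fold change 0.76, edgeR adjusted p = 0.0542) and Fzd8 (0.29, edgeR adjusted p = 0.168) were not called. Summed per kilobase of transcript, the Frizzleds had 20.2 ± 1.87 CPM per kilobase in CD24- and 31.4 ± 2.38 in CD24+ cells. Fzd6 made up 54.0% ± 9.18 of that sum in CD24- and 34.2% ± 5.08 in CD24+ cells, Fzd2 19.9% ± 6.27 and 27.5% ± 2.35, and Fzd7 2.30% ± 0.444 and 13.6% ± 1.48 (SD, n = 3 each). Fzd6 was the most abundant Frizzled in every library of both groups, though close to Fzd2 in CD24+ replicate 1 (29.1% and 29.0%). The share of Fzd7 was the one that differed most in proportion among these 3. That of Fzd1, which was near the read floor in CD24- cells, was 0.397% and 2.95%.

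**Figure D2:**
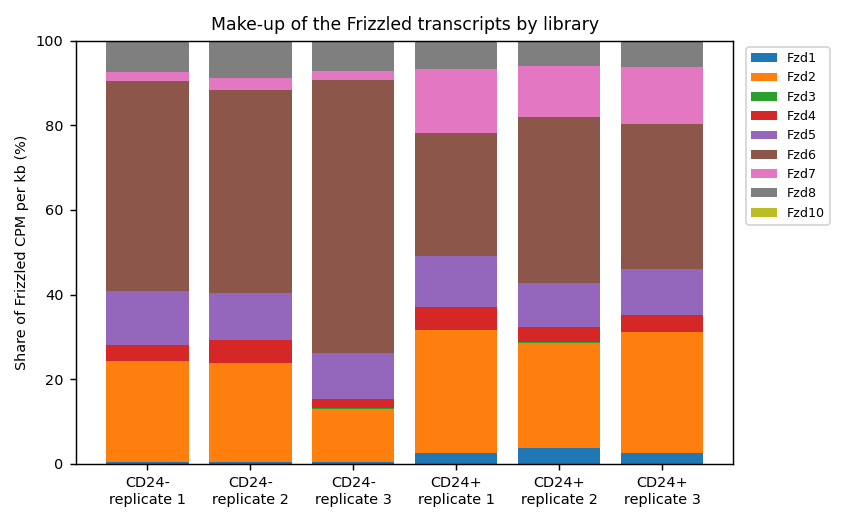
Share of each Frizzled in the summed Frizzled level (CPM per kilobase of transcript), as stacked bars for the 6 libraries. Fzd6 takes 54.0% of the sum in CD24- and 34.2% in CD24+ cells, while Fzd7 takes 2.30% and 13.6%.

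Lrp5, on chromosome 19 of GRCm38 from 3584828 to 3686564 on the minus strand, and Lrp6, on chromosome 6 from 134446476 to 134566965 on the minus strand, are the paired co-receptors, with a protein identity of 69.6%. They act in overlapping roles in β-catenin signalling, and both take part in mammary gland development. The most frequent coding read of Lrp5 lies at mm9 chr19:3591726-3591772, with 30 copies in CD24- and 28 in CD24+ libraries, which held more gene reads in all.
Lrp5: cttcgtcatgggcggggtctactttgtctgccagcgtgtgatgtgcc
Lrp5 had 269.6, 294.4 and 244.2 CPM in CD24- and 137.0, 150.7 and 158.6 CPM in CD24+ replicates 1 to 3. Every CD24- library was well above every CD24+ library. The means were 269.4 ± 25.1 and 148.8 ± 10.9 CPM (SD over 3 plates), and the log2 fold change was -0.85 (standard error 0.09, edgeR adjusted p = 4.21e-05), or 1.81 times more in CD24- cells.

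Lrp6 had 122.1, 132.9 and 132.6 CPM in CD24- and 90.6, 114.0 and 112.7 CPM in CD24+ replicates 1 to 3. The groups did not overlap, but the gap between them was small. The means were 129.2 ± 6.14 and 105.8 ± 13.2 CPM (SD over 3 plates), and the log2 fold change was -0.28 (standard error 0.10, edgeR adjusted p = 0.0393). Its call was lost without CD24- replicate 1 (-0.32, edgeR adjusted p = 0.0577), replicate 2 (-0.26, 0.112) or replicate 3 (-0.26, 0.0703), and without CD24+ replicate 1 (-0.20, 0.0707). With each distinct sequence counted once the value was -0.19 (edgeR adjusted p = 0.172). By median coverage it was -0.16 (limma adjusted p = 0.0788). There the regularizer of 10 was added to coverages of only 7.5 to 11.5, which shrinks the change, so its size is not comparable with that of the main fit. The lower level of Lrp6 is thus close to the threshold.

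Of 4 other co-receptors and alternative receptors, 3 were tested. Ryk, a Wnt receptor with an inactive kinase domain, was higher in CD24+ cells, at 104 ± 1.97 and 146 ± 1.39 CPM (log2 fold change 0.48, edgeR adjusted p = 3.38e-04). Ror1, a receptor kinase that binds Wnt5a, was also higher, at 0.515 ± 0.0596 and 2.18 ± 0.847 CPM (log2 fold change 2.14, edgeR adjusted p = 0.00141), and passed the filter through CD24+ libraries alone. Ptk7 had a log2 fold change of -0.28 and was not called.

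**Figure D3:**
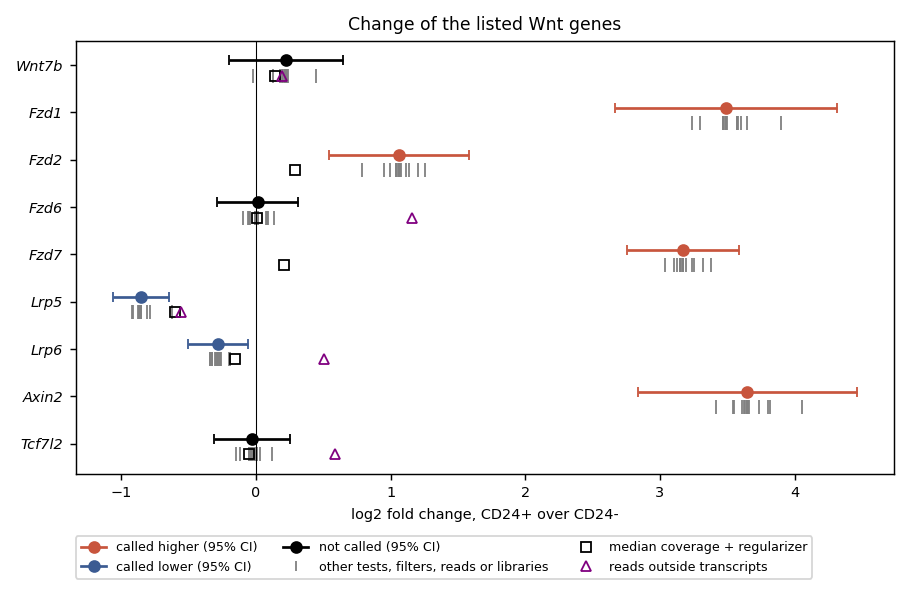
Log2 fold change (CD24+ over CD24-) of the 9 tested genes, with 95% intervals, coloured by call, and smaller marks below each interval for the same value under other processing. The intervals of Fzd1, Fzd7 and Axin2 lie above 2, that of Fzd2 above 0, those of Lrp5 and Lrp6 below 0, and those of Wnt7b, Fzd6 and Tcf7l2 include 0.

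Axin2, on chromosome 11 of GRCm38 from 108920349 to 108950783, was low in both groups. It had 4, 2 and 2 reads in CD24- replicates 1 to 3 (0.421, 0.189 and 0.225 CPM), and 18, 66 and 75 reads in CD24+ replicates 1 to 3 (2.83, 3.72 and 3.93 CPM). The CD24- libraries lay within 1 read of the floor of 3 reads and below every CD24+ library. The log2 fold change was 3.65 (95% interval 2.84 to 4.47, edgeR adjusted p = 2.28e-05). Leaving out each library in turn gave 3.42 to 4.05. Of its 167 reads, 163 were distinct sequences. The most frequent coding read, at mm9 chr11:108785090-108785136, was found once in each of CD24+ replicates 2 and 3.
Axin2: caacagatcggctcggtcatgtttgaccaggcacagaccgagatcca
Axin2 and Fzd1 had the largest fitted increases among the members, with intervals that overlapped each other and that of Fzd7 (2.75 to 3.59). The order of Axin2 and Fzd1 turned under some alternatives, such as thinning to the shallowest library (3.80 and 3.90). In addition, 209 bases of the Axin2 exons, over all its transcripts, overlap exons of the antisense gene Gm11670. Its reads cannot be told apart from those of Axin2 there.

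Tcf7l2, on chromosome 19 of GRCm38 from 55741820 to 55933654, is a TCF/LEF factor that binds β-catenin on target genes. It had 20.7, 19.0 and 18.9 CPM in CD24- and 16.7, 21.7 and 18.5 CPM in CD24+ replicates 1 to 3, so the groups overlapped. The log2 fold change was -0.03 (95% interval -0.31 to 0.25, edgeR adjusted p = 0.866). Tcf7l1, a family member known mainly as a repressor and annotated here under the symbol Tcf3, was higher in CD24+ cells, at 2.77 ± 0.475 and 12.1 ± 1.195 CPM (log2 fold change 2.11, edgeR adjusted p = 1.05e-05). Its identity was settled by sequence, since at least 90% of its reads that matched a GENCODE gene matched Tcf7l1.

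Among the 12 other listed nuclear genes, 10 were tested, with 5 higher, 2 lower and 3 not called, or 70% called beside 46.1% of all genes. Apart from Tcf7l1, these were Groucho corepressors, which bind TCF/LEF factors, and β-catenin partners. Tle2 (19.6 ± 10.1 and 40.7 ± 15.3 CPM, log2 fold change 1.06, edgeR adjusted p = 0.0351) and Ctnnbip1, an inhibitor of the β-catenin to TCF contact (0.55, edgeR adjusted p = 0.00384), were higher. Bcl9 (0.37, edgeR adjusted p = 0.0302) and Tle3 (0.29, edgeR adjusted p = 0.0223) were also higher. Tle1 (-0.58, edgeR adjusted p = 7.66e-04) and Tle4 (-0.54, edgeR adjusted p = 0.0479) were lower. Tle2 spread widely, with 7.998 CPM in CD24- replicate 3 and 58.4 CPM in CD24+ replicate 3.

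Among 18 other listed targets, 12 were tested, with 6 higher, 4 lower and 2 not called, or 83.3% called beside 46.1% of all genes, of which 23.8% were higher and 22.2% lower. Wisp1, a secreted matricellular protein, rose from 6.42 ± 0.698 to 49.1 ± 6.95 CPM (log2 fold change 2.94, edgeR adjusted p = 2.23e-07), and its relative Wisp2 rose from 2.89 ± 0.550 to 10.1 ± 2.73 CPM (1.84, edgeR adjusted p = 1.68e-04). Notum, given above, is also in this list. Bambi, a decoy receptor of the TGF-β family, fell from 3.24 ± 0.495 to 0.376 ± 0.210 CPM (-2.88, edgeR adjusted p = 7.93e-05), having passed the filter through CD24- libraries alone, and Myc fell from 897 ± 116 to 251 ± 50.9 CPM (-1.83, edgeR adjusted p = 5.86e-06). Myc reads in this line may mix the endogenous gene with the transgene, which these summed counts cannot separate. The share of either was not examined. The other lower targets were Znrf3 (-0.42, edgeR adjusted p = 0.00995) and Cd44 (-0.30, edgeR adjusted p = 0.0108). The other higher targets were Twist1 (0.86, edgeR adjusted p = 3.70e-05), Apcdd1 (0.60, given below) and Ccnd1, the cyclin D1 gene (0.44, edgeR adjusted p = 0.00189).

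**Figure D4:**
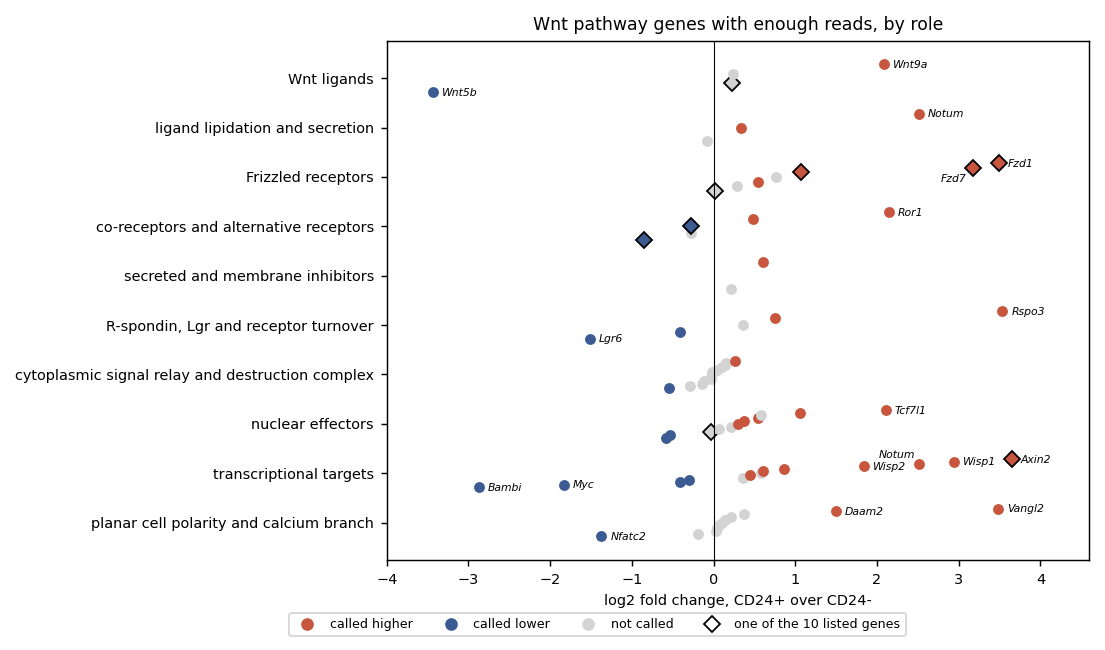
Log2 fold change (CD24+ over CD24-) of every tested gene of the Wnt pathway lists, by role, with the 9 tested members as outlined diamonds. Most cytoplasmic genes lie near 0, while the targets run from Bambi at -2.88 to Axin2 at 3.65.

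In the cytoplasmic relay few genes were called. Of 14 measured genes 13 were tested, with Csnk1a1 higher (log2 fold change 0.26, edgeR adjusted p = 0.0124), Csnk1e lower (-0.55, edgeR adjusted p = 0.00186) and 11 not called, or 15.4% called beside 46.1% of all genes. Both encode casein kinases. Ctnnb1, which encodes β-catenin, had 688 ± 8.74 and 738 ± 56.6 CPM (0.10, edgeR adjusted p = 0.326), and the partners Axin1 (0.14, edgeR adjusted p = 0.323) and Apc (-0.02, edgeR adjusted p = 0.899) were also not called. Differences in protein or in β-catenin location were not measured here.

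Other listed genes set receptor availability. Of 6 measured R-spondin, Lgr and receptor turnover genes, 5 were tested, with 2 higher, 2 lower and 1 not called, or 80% called beside 46.1% of all genes. Rspo3, a secreted enhancer of Wnt signalling, rose from 0.234 ± 0.135 to 3.05 ± 0.764 CPM (log2 fold change 3.54, edgeR adjusted p = 8.20e-05), but could be tested only through its CD24+ reads. Its receptor Lgr4 rose from 11.5 ± 3.72 to 19.0 ± 1.61 CPM (0.75, edgeR adjusted p = 0.0105). Lgr6 fell from 11.03 ± 1.35 to 4.19 ± 1.76 CPM (-1.51, edgeR adjusted p = 8.81e-04), and Znrf3, an enzyme that removes Frizzleds from the surface, had a smaller decrease (-0.42, edgeR adjusted p = 0.00995). Among 9 measured secreted and membrane inhibitors, 2 were tested and 7 had 89 reads between them. Apcdd1, a membrane inhibitor, was higher, at 192 ± 15.6 and 291 ± 29.2 CPM (0.60, edgeR adjusted p = 5.80e-04).

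Of 14 measured planar cell polarity and calcium branch genes, 11 were tested, with 2 higher, 1 lower and 8 not called, or 27.3% called beside 46.1% of all genes. Vangl2, a core polarity gene, was higher (0.177 ± 0.0715 and 1.99 ± 0.261 CPM, log2 fold change 3.48, edgeR adjusted p = 8.57e-05), as was Daam2 (1.49, edgeR adjusted p = 0.0237), and both passed the filter through CD24+ libraries alone. Nfatc2, a calcium-regulated factor, was lower (62.4 ± 9.11 and 23.9 ± 2.53 CPM, -1.38, edgeR adjusted p = 1.34e-05). Over all these lists without the 10 members, 60 genes were tested, with 21 higher, 10 lower and 29 not called, or 51.7% called beside 46.1% of all genes. Their median log2 fold change was 0.18, beside 0.02 over all genes, and 36 had groups that did not overlap, beside 57.3% of all genes. Of the called genes, 5 higher (Wnt9a, Ror1, Rspo3, Vangl2, Daam2) and 2 lower (Wnt5b, Bambi) entered the test only through the group in which they were high.

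Per kilobase of transcript the 10 genes differed in level by far more than any of them did between the groups. This scale divides by the full length of 1 transcript per gene, as do the ligand and Frizzled shares above. The 3′ UTR of Lrp6, 4313 of 9368 bases, took 4.92% of its coding and 3′ UTR reads in CD24- and 4.96% in CD24+ cells. Reads across exon junctions are also mostly missing, except in single-exon genes such as Fzd1, Fzd2 and Fzd7, so the order of genes is approximate. In CD24- cells Lrp5 (52.2 CPM per kilobase) and Wnt7b (48.2) were the highest and overlapped, followed by Lrp6 (13.8), Fzd6 (10.8), Tcf7l2 (5.26) and Fzd2 (4.11), of which the last overlapped Tcf7l2. Fzd7 (0.466) stood below these, and Fzd1 (0.0814) and Axin2 (0.0654), which overlapped, were lower still. In CD24+ cells Wnt7b (56.7 CPM per kilobase) was highest, then Lrp5 (28.8), Lrp6 (11.3), Fzd6 (10.8), Fzd2 (8.63), Tcf7l2 (5.10) and Fzd7 (4.27), with Fzd6 overlapping Lrp6 and Fzd2, and Fzd7 overlapping Tcf7l2. Fzd1 (0.927), Axin2 (0.820) and Wnt5a (0.00805) came last, the former pair overlapping. The mean Fzd7 level thus stayed below that of Tcf7l2 in both groups. It was nearer in CD24+ cells, where the ranges of these genes over libraries overlapped.

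Along the transcripts, the Fzd7 reads covered the coding sequence and the 3′ UTR in CD24+ cells. Reads of Lrp5 lay almost wholly in its coding sequence in both groups, and that sequence makes up 4842 of the 5161 bases of its transcript. For Fzd2, the 3′ UTR took 11.1%, 12.4% and 4.92% of the coding and 3′ UTR reads in CD24- and 19.9%, 19.6% and 21.8% in CD24+ replicates 1 to 3. The CD24+ shares were thus higher in every library (exact two-sided permutation test, p = 0.1, the smallest that 3 libraries against 3 can give, and 0.35 after Benjamini-Hochberg adjustment over the 7 genes compared). The share in CD24- replicate 3 rests on 3 of 61 reads. Tcf7l2 had the same p, with 42.6% ± 2.23 and 45.1% ± 1.07 (SD, n = 3 each, exact permutation test). In Wnt7b the 3′ UTR share was 72.2% ± 2.42 and 73.8% ± 1.10 (SD, n = 3 each).

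**Figure D5:**
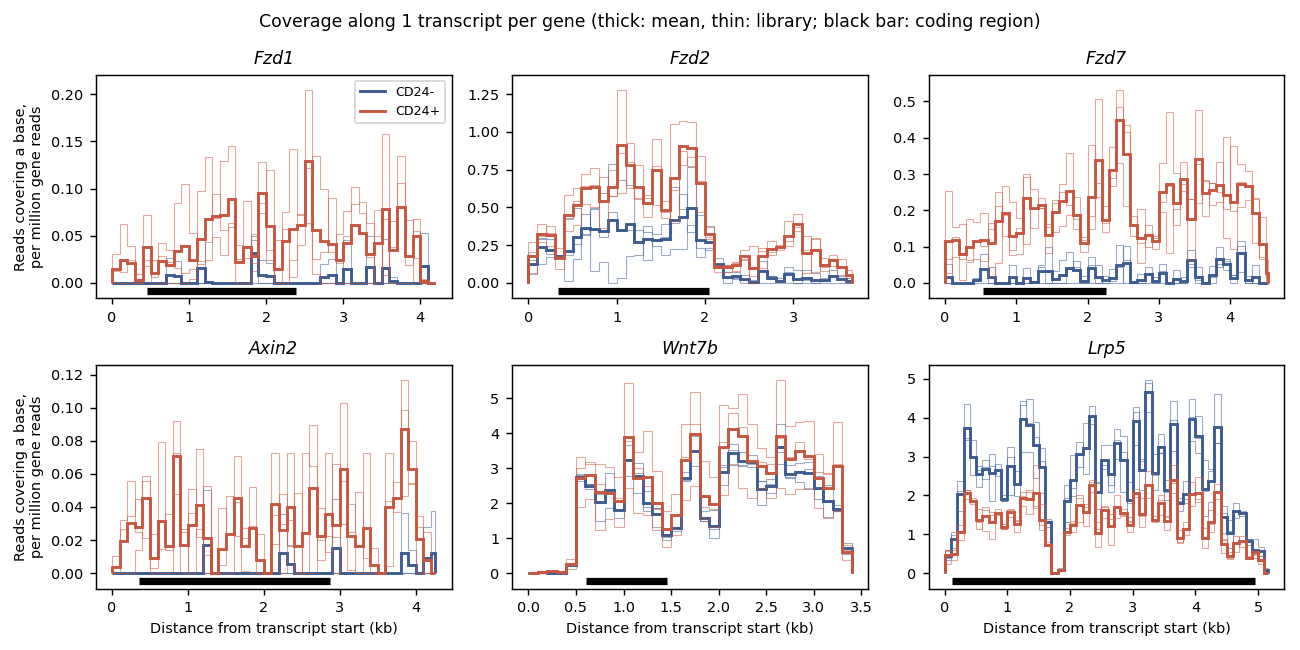
Reads covering a base, in CPM, along 1 transcript of Fzd1, Fzd2, Fzd7, Axin2, Wnt7b and Lrp5, by distance from the transcript start in kilobases, with thick lines for group means, thin lines for libraries and a black bar for the coding region. CD24+ coverage is above CD24- coverage along most of Fzd7 and below it along most of Lrp5, and in Fzd2 the CD24- mean stays low over the 3′ UTR, where the shares were 11.1%, 12.4% and 4.92%.

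Promoter sequence from RefSeq, on GRCm38.p6 and covering the 250 bases before the RefSeq gene start, was matched for Fzd1, Fzd7, Axin2 and Tcf7l2. Fzd7 and Axin2, both higher in CD24+ cells, are shown. Fzd1 was also higher and was searched, but its stretch is not shown. All matched stretches were searched on either strand for letters that TCF/LEF factors bind. These are the core form CTTTGAT and its close variant CTTTGAA, besides the related form CTTTGTT and its close variant CTTTGTA. Capitals mark a match. The Fzd7 stretch is chr1:59481897-59482146 and the Axin2 stretch chr11:108920099-108920348, both on the plus strand.
Fzd7: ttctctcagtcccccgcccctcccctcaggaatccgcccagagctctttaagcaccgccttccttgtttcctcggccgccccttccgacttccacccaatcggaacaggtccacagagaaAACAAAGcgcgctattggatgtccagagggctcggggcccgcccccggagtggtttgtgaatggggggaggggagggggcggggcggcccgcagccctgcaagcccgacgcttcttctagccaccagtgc
Axin2: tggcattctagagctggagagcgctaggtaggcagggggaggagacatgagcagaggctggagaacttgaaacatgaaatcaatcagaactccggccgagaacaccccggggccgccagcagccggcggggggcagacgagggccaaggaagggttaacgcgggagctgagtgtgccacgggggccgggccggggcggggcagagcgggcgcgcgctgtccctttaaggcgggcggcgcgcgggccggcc
The Fzd7 stretch held AACAAAG, which is CTTTGTT on the other strand, at position -130 from the RefSeq start, which for Fzd7 lies upstream of the GENCODE start given above. The Axin2 and Fzd1 stretches held no match, and of the 2 Tcf7l2 stretches 1 held CTTTGTT at position -14, in a gene that was not called. Of 32851 promoters of the same length, 4874 (14.8%) held at least 1 match, so a match is a description of these letters and not of binding.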

How the data were processed

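The authors trimmed 2 nt from each end of 51-nt single-end reads, collapsed identical sequences, and placed each distinct 47-nt sequence on mm9 by exact match, with 1 location and 1 annotation, so most reads across exon junctions are left out. They deposited raw counts of every mapped sequence per library, not normalized. Here counts were summed per annotation. Reads annotated to repeats (6.19% to 8.04%), small or noncoding RNA (0.989% to 3.73%) or nothing (16.9% to 20.2%) stayed out of gene totals and tests. Genes passing filterByExpr (1.01 CPM in 3 libraries) were tested over the whole table with edgeR 4.0.16 in R 4.3.3 (TMM scaling and the quasi-likelihood F test, with p-values adjusted by Benjamini-Hochberg and called under 0.05). limma 3.58.1 and DESeq2 1.42.0 served alternatives.

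The members and lists were chosen with earlier results of these data known. Pathway lists were written from general knowledge, and 22 listed symbols that matched no annotation were not analysed here. The genes named are Cd24a, the members, the Wnt and Frizzled families, up to 3 called genes (mean CPM 1 or more) in each direction of each list, and the 3 genes closest in profile to the most raised and the most lowered member by fitted value. A few others (Ctnnb1, Axin1, Apc, Ccnd1, Cd44, Twist1, Bcl9, Tle3, Ptk7 and Porcn) were named after their values were seen. So were the cell type markers singled out (such as Epcam, Cdh1, Ptprc, Trp63, Krt5 and Krt14). Transcript positions and lengths come from GENCODE M21 (GRCm38), by exact sequence match, with 1 transcript per gene. Read positions are on mm9. Intervals cover the spread between libraries, and floors cover counting error only. On simulated counts of this comparison, with 200 of 11033 genes changed 4-fold, edgeR recovered 100% and called 0.0923% of the unchanged genes. The changed genes were drawn from the more abundant ones, and all genes were given the same dispersion. The simulation thus does not measure performance on low genes such as Fzd1 and Axin2, or where many more genes change. Samples were grouped by their labels, and libraries of a group differed by more than sampling noise. The chi-square per degree of freedom was 1.75 for CD24- replicates 1 and 2, and 9.78 to 15.9 for the other pairs. These 2 CD24- libraries were thus much closer to each other than any other pair. Alternatives were other tests, scalings, filters and read sets, thinning, median coverage, a replicate block and leaving out each library.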

Additional observations from a re-analysis of the deposited data

How the results depend on the processing

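Fzd2 and Fzd7 kept their direction and their call under all 15 alternatives that could be run for them. Fzd1 and Axin2 did so under 14, but could enter the filtered fits only by being high in CD24+ libraries, which says nothing of the stability of their direction. Lrp5 did so in 15 of 16, and was not called on reads outside GENCODE transcripts (-0.56, edgeR adjusted p = 0.0699), a fit scaled to those reads alone. Leaving out each library gave 4061 to 5354 genes called and 5 to 7 members called. The number of genes called was 3171 of 9023 tested by median coverage with quantile normalization and 1600 with a minimum absolute log2 fold change of 1, beside 5130. That minimum left 4 members called, all higher, so Lrp5 and Lrp6 dropped out. The number of members called was 3 of 7 tested by median coverage and 1 on reads outside GENCODE transcripts, where 5 could be tested and which was chosen after seeing the data. Both tested fewer features by construction, and otherwise the cause was not tested. The pathway genes called, 31, ranged from 24 to 33.

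The genes that were not called changed sign around 0. Fzd6 was -0.0065 with DESeq2, -0.0071 without TMM, -0.062 on reads matching a single GENCODE gene and -0.010 with the replicate block, and between -0.099 and 0.14 with each library left out, with the sign reversed without CD24- replicate 2 (-0.047), CD24+ replicate 2 (-0.099) and CD24+ replicate 3 (-0.049). Tcf7l2 ran from -0.15 to 0.030 with each library left out, and was 0.12 with each distinct sequence counted once, 0.58 on reads outside transcripts and 0.0093 without CD24- replicate 1. Wnt7b ran from -0.021 to 0.44 with each library left out. Lrp6, which was called in the main fit, was 0.50 on reads outside transcripts (edgeR adjusted p = 0.0986), from 28, 40 and 44 reads in CD24- and 14, 91 and 84 in CD24+ replicates 1 to 3. Fits on reads outside transcripts were scaled to those reads alone, whose share of gene reads was lower in CD24+ libraries. The signs and sizes of these values thus cannot be set directly beside those of the other fits. Deviations of same-numbered libraries correlated at 0.012, -0.33 and -0.39. Libraries with different numbers were not compared, so these values cannot settle whether replicate numbers pair the libraries. The replicate block gave 4486 genes, 6 members and 30 pathway genes called. Few reads were available for Wnt5a, with 0 in every CD24- library, and for Fzd1 and Axin2, with 2 to 4 in each CD24- library.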

Other observations

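The genes closest in profile to Axin2 over the 6 libraries, by Euclidean distance of centred log2 CPM, were Ebf3 (distance 0.19), Zic2 (0.323) and Cachd1 (0.338). Ebf3 and Zic2 encode transcription factors, and 203 genes lay within a distance of 1. Ebf3 had 0.971 CPM in CD24- and 9.84 CPM in CD24+ cells, and Zic2 0.866 and 7.90 CPM. The genes closest to Lrp5 were Ctns (0.0814), the lysosomal cystine transporter, Cdc2l6 (0.0863), a cyclin-dependent kinase, and D930015E06Rik (0.113), with 3906 genes within a distance of 1. Ctns had 22.9 and 12.6 CPM, and Cdc2l6 117 and 63.7 CPM. With 6 libraries in 2 groups, such a distance mainly compares the group difference, and many genes share it.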
